A study of Mus musculus with 12 samples.

Results

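Medium from p53-knockout breast cancer cells was compared with the standard protocol in differentiating 3T3-L1 cells, mouse fibroblasts that become fat cells under a hormone cocktail. The comparison takes 6 of the 12 libraries of the study, 3 labelled as differentiated with that medium (KO_CM) and 3 labelled as regularly differentiated (regular_diff), and covers every gene of the count table. Of 11035 genes in the table, 9519 had enough counts to be tested. RNA was counted by MARS-seq, in which the ends of transcripts are tagged with unique molecular identifiers, so that each count stands for 1 tagged molecule. The study also holds 3 libraries with medium of p53-intact cancer cells (WT_CM) and 3 of undifferentiated cells (preadipocyte), which are used here for context and for the estimate of spread.

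KO_CM and regular_diff cells carry the genotype label WT, and the knockout was made in the cancer cells, not in the cells sequenced. For both groups the labels describe 3T3-L1 cells 2 days past confluence that spent 2 days in an induction cocktail: insulin (1 µg/mL), dexamethasone (1 µM), rosiglitazone (2 µM) and IBMX (0.5 mM), in 10% FBS. They were then kept for 2 days with insulin at 1 µg/mL and moved to maintenance medium. KO_CM cells received, at every step, filtered medium conditioned by WEA cells lacking p53, mixed in equal parts with the differentiation medium. The study has no cells given an equal share of unconditioned medium, so dilution of the inducers and factors of the cancer cells cannot be told apart. KO_CM replicates are numbered 1 to 3 and regular_diff replicates 4 to 6. Should these numbers stand for separate rounds of culture, round and medium cannot be told apart. The labels do not state that the 3 libraries were grown as separate cultures, and the spread behind the p-values, which comes from libraries within each of the 4 groups, may be technical. The line is a single established clone, and each library was made from 30 ng of RNA.

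Fat cell formation in this line runs through a cascade in which early C/EBP factors and the glucocorticoid receptor switch on Pparg and Cebpa, which then hold each other on. The late genes under their control build the lipid droplet, import and make fatty acids, join them to glycerol, and secrete hormones such as adiponectin. Meanwhile the cell loses its fibroblast matrix, its contractile fibres and its progenitor receptors. Inflammatory cytokines and growth factors are known to block the late part of this cascade in culture.

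Total counts were 748693, 1132099 and 669007 in KO_CM replicates 1, 2 and 3, against 1731755, 1387854 and 1801316 in regular_diff replicates 4, 5 and 6. The KO_CM libraries were thus the shallower ones, and 1 count was worth 0.903 to 1.47 CPM there and 0.581 to 0.752 CPM in regular_diff libraries. CPM are counts scaled to a common library total after TMM correction. Log-scale correlations across genes within a group ran from 0.927 to 0.955 in KO_CM and from 0.976 to 0.981 in regular_diff. Every pair of libraries of 1 group differed by more than sampling noise, with a chi-square per degree of freedom of at least 1.95 in the study. KO_CM replicate 1 stood apart: of 2589 genes with a group median of at least 100 CPM, 18 lay 8-fold or more below the median of KO_CM libraries there, against 0 in KO_CM replicates 2 and 3. Regular_diff replicate 4 had 1 such gene, Gapdh, and preadipocyte replicate 5 had 7, of which B2m, Ppia, Psma2, Psmb7 and Tmsb4x were also low in KO_CM replicate 1. Across 2041 genes, which are not independent, the log-scale differences of these libraries from the mean of the others in their group had a correlation of 0.584. Over all pairs of a KO_CM and a preadipocyte library such correlations ran from -0.542 to 0.584, with 0.474 for KO_CM replicate 3 and preadipocyte replicate 6. Within a group of 3 these differences are tied to each other. An alternative left out KO_CM replicate 1 and preadipocyte replicate 5 together. S100a4, for example, had 115, 3246 and 2399 CPM in KO_CM, against 515, 456 and 532 CPM in regular_diff libraries, and B2m had 74.7, 1141 and 697 CPM in KO_CM, against 426, 172 and 484 CPM in regular_diff libraries. For both genes KO_CM replicate 1 was the lowest of the 6 libraries and replicates 2 and 3 the highest, and no change was called. Rps2, a ribosomal protein gene, had 51.1, 50.6 and 52.7 CPM in KO_CM, against 2486, 1793 and 2584 CPM in regular_diff libraries. It was called lower (-5.47 ± 1.61, adjusted p 0.0294), but 1 WT_CM and 1 preadipocyte library were as low (51.2 and 82.1 CPM). The call was lost without any 1 of the KO_CM libraries and without regular_diff replicate 4 or 6 (range of the adjusted p over all alternatives 3.34e-15 to 0.119). Of the short stretches of transcript sequence examined near the 3′ end, 84.7% in Rps2, 66.2% in Gapdh, 63.1% in Ppia, 48.2% in S100a4 and 18.7% in Ly6a also occur in other genes, so their counts are uncertain, whereas B2m and Hsd11b1 had 0.0%. Over 10% was shared in 8 of the 21 genes that were low in 1 library of a group, against 25 of the 184 other genes named. Whether shared stretches, the library or the cells set these splits was not tested. The genes of this paragraph other than Rps2 were chosen after their values were seen.

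**Figure D1:**
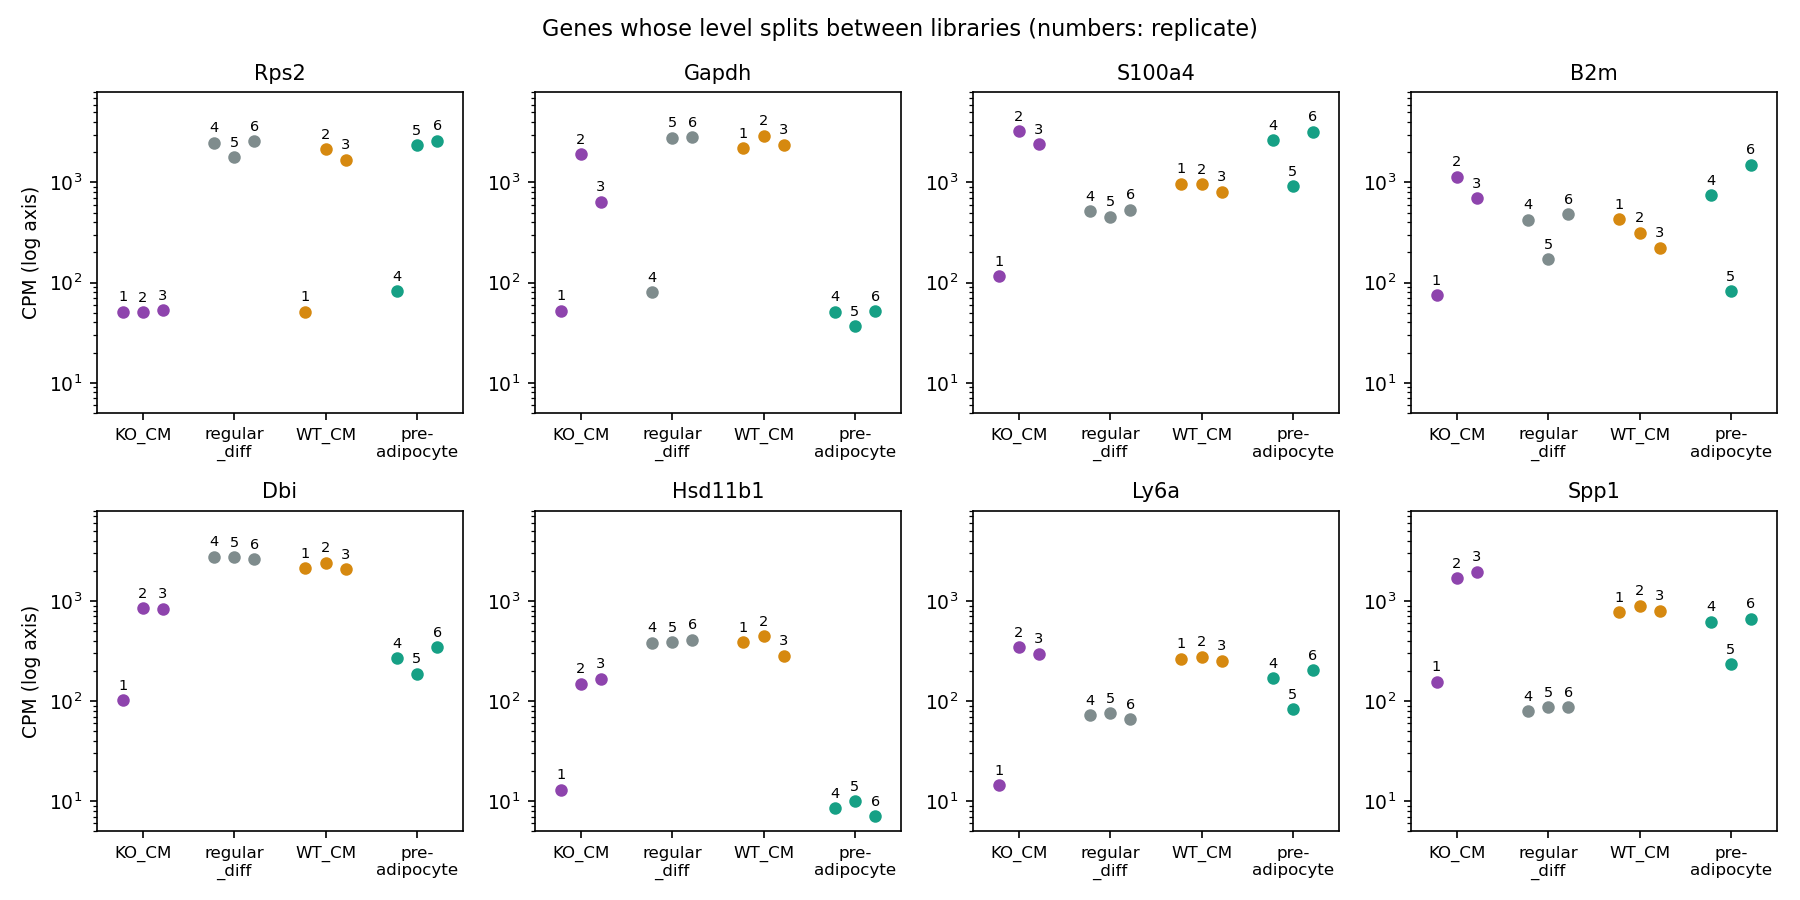
CPM on a log axis for 8 genes in each of the 12 libraries, with the replicate number at each point and the groups in the order KO_CM, regular_diff, WT_CM and preadipocyte. KO_CM replicate 1 lies far below KO_CM replicates 2 and 3 for Gapdh, S100a4, B2m, Dbi, Hsd11b1, Ly6a and Spp1, while for Rps2 all 3 KO_CM libraries lie together near 51 CPM.

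The test was edgeR's quasi-likelihood F-test with Benjamini-Hochberg adjustment over all genes tested, and genes under 0.05 are referred to as called. Differences are given as log2 fold changes of KO_CM over regular_diff with the SE of the fit, so that a positive value means more counts in KO_CM. Of 9519 genes tested, 3290 were called (34.6%), 1639 higher (17.2%) and 1651 lower (17.3%), and 1557 genes (16.4%) were called with a change of at least 2-fold. The median log2 fold change over all genes tested was -0.0028. In 3155 of the 3290 called genes the libraries of the groups did not overlap in CPM. Calling favours such genes, and the share without overlap over all genes tested is not given. Statements below that groups did not overlap therefore describe the values and are no further test. The share called depended on level: of 4 classes of equal size by mean CPM, 53.03% of the genes in the highest were called, but 20.6% in the lowest. By the authors' deposited table, a total of 2802 genes passed an adjusted p of 0.05, 1386 of them higher and 1416 lower in KO_CM once its sign, which runs as regular_diff over KO_CM, is turned round. Of these, 2714 were also called here. In this bulk measurement, fewer cells of a type and less RNA per cell cannot be told apart.

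**Figure D2:**
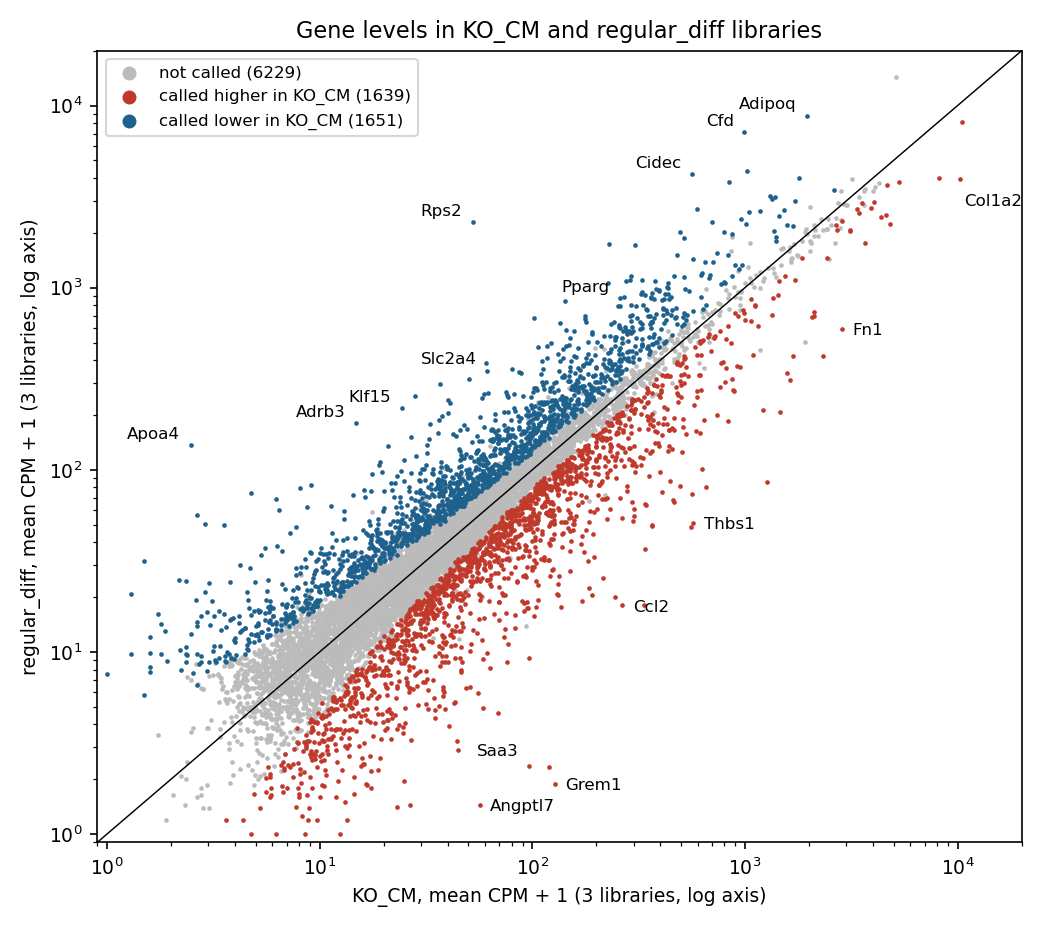
Mean CPM + 1 of the 9519 genes tested in KO_CM (horizontal, log axis) and regular_diff libraries (vertical, log axis), coloured by call, with the line of equal levels. The 1651 genes called lower lie above the line, with Apoa4, Adrb3, Cidec and Cfd far from it, and the 1639 called higher lie below it, with Angptl7, Grem1, Saa3 and Ccl2 far from it.

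Genes were then read in groups by role. Counts are of tested members, and the background against which a count is read is 17.2% called higher and 17.3% called lower over all genes. This background is not matched for level. In the highest of the 4 level classes, 539 of 2380 genes were called higher and 723 lower, against 306 and 185 of 2380 in the lowest. Groups of fat storage, fat synthesis and mitochondrial fuel use were mostly called lower, and groups of matrix, proteases, progenitor receptors, contractile fibres, chemokines and NF-kB response mostly higher.

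**Figure D3:**
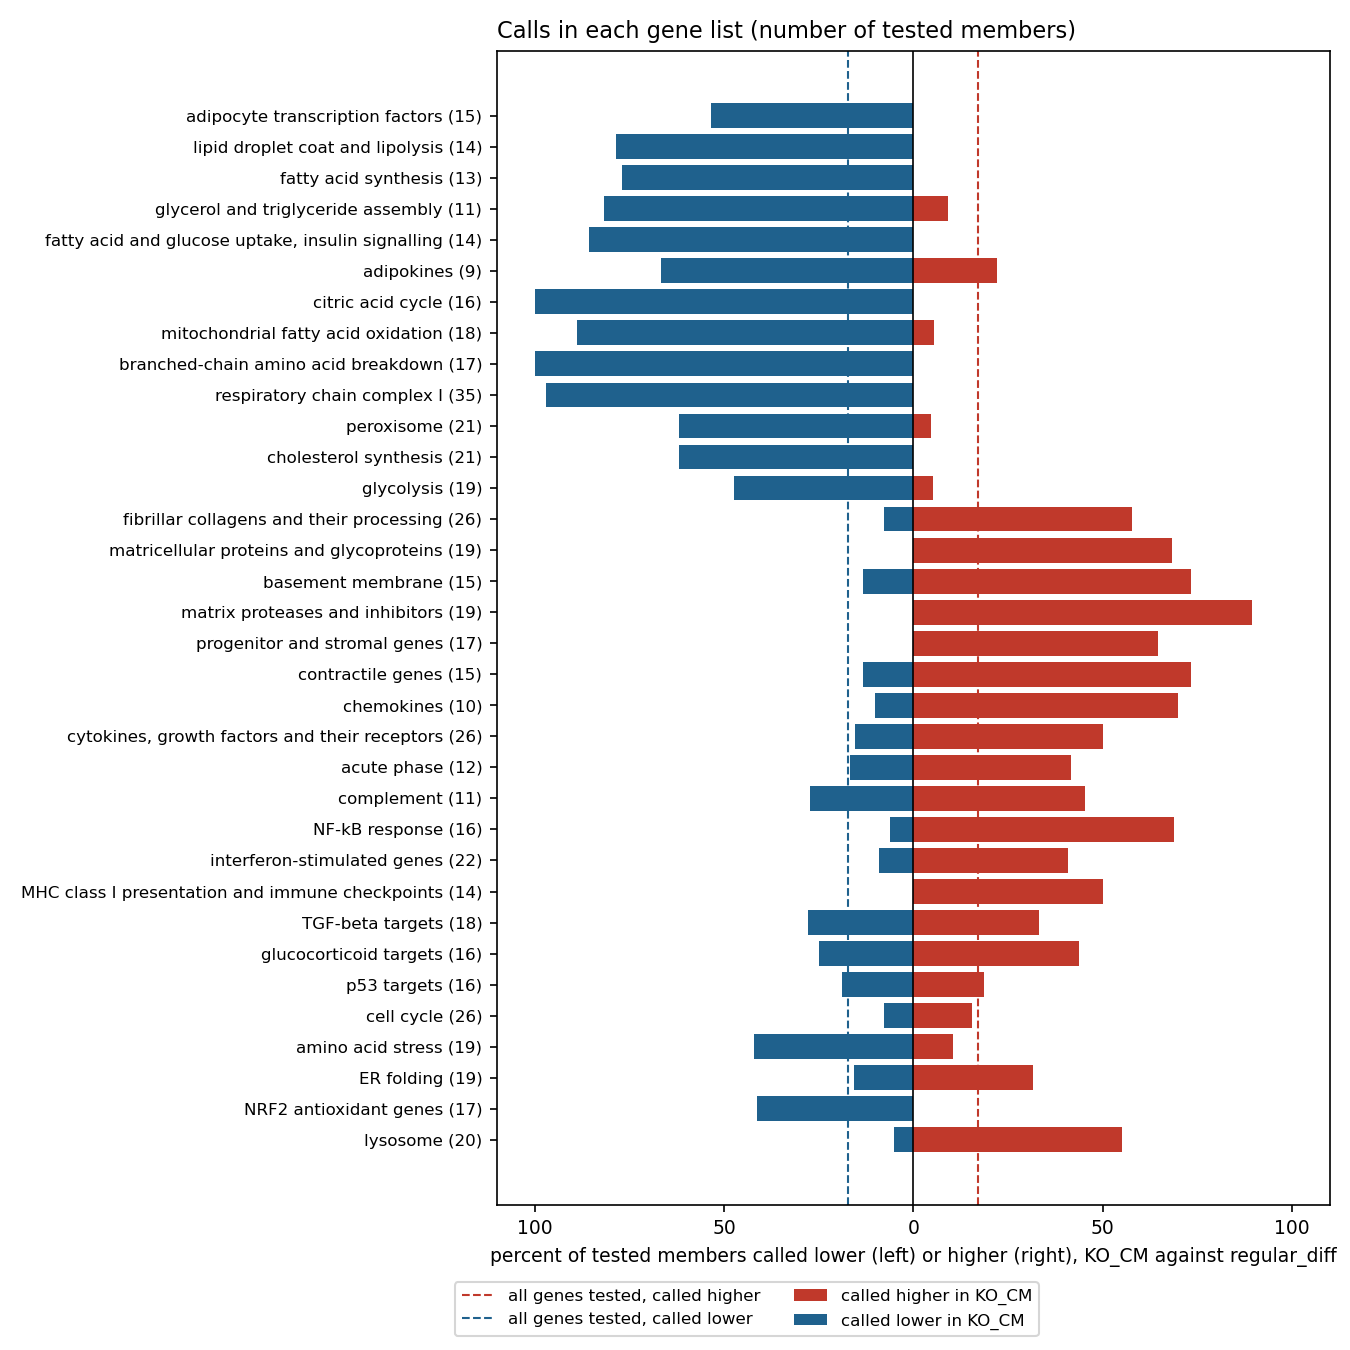
Percent of the tested members of each gene group called lower (bars to the left) or higher (bars to the right) in KO_CM against regular_diff, for groups with at least 5 tested members, whose number stands in brackets. Dashed lines mark the 17.3% and 17.2% called over all genes. All 16 tested citric acid cycle genes and all 17 tested genes of branched-chain amino acid breakdown were called lower, and 17 of 19 matrix proteases and inhibitors were called higher.

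Of 15 transcription factors of fat cells, 8 fell and 0 rose, with a median of -0.82. Pparg, a nuclear receptor and the master regulator of the fat cell, lies on chromosome 6 from 115360951 to 115490399 (mm10). It had 221, 245 and 309 CPM in KO_CM libraries, against 894, 837 and 905 CPM in regular_diff libraries. The highest KO_CM library was well below the lowest regular_diff library, and Pparg fell by 1.77 ± 0.12 on the log2 scale (adjusted p 1.18e-12). Cebpa, its partner on chromosome 7 from 35119293 to 35121928, had 151, 116 and 133 CPM in KO_CM, against 391.8, 409 and 391 CPM in regular_diff libraries. Klf15, a zinc-finger factor of the late cascade that promotes the insulin-responsive glucose transporter, fell the most of the group: it had 21.0, 15.3 and 33.7 CPM in KO_CM, against 205, 216 and 229.9 CPM in regular_diff libraries, a change of -3.29 ± 0.19 (adjusted p 8.09e-14). For neither gene did the groups overlap. Preadipocyte libraries held 43.5 to 56.0 CPM of Pparg, 11.2 to 13.5 CPM of Cebpa and 0.500 to 1.87 CPM of Klf15, so the KO_CM levels lay between those of undifferentiated and regularly differentiated cells for these 3 genes. Ppargc1b, a coactivator of mitochondrial genes, changed by -1.53 ± 0.45. Its call (adjusted p 0.00890) was lost without regular_diff replicate 4 (0.0505), over a range of 0.00467 to 0.0505. The early factor Cebpb had 509.7, 495 and 611 CPM in KO_CM, against 533, 507 and 565 CPM in regular_diff libraries, and the glucocorticoid receptor Nr3c1 had 127, 100.2 and 98.2 CPM in KO_CM, against 96.6, 112 and 93.5 CPM in regular_diff libraries. The ranges of both genes overlapped and neither was called, at 0.01 ± 0.17 and 0.11 ± 0.13. Cebpb and Nr3c1 were chosen after their values were seen.

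**Figure D4:**
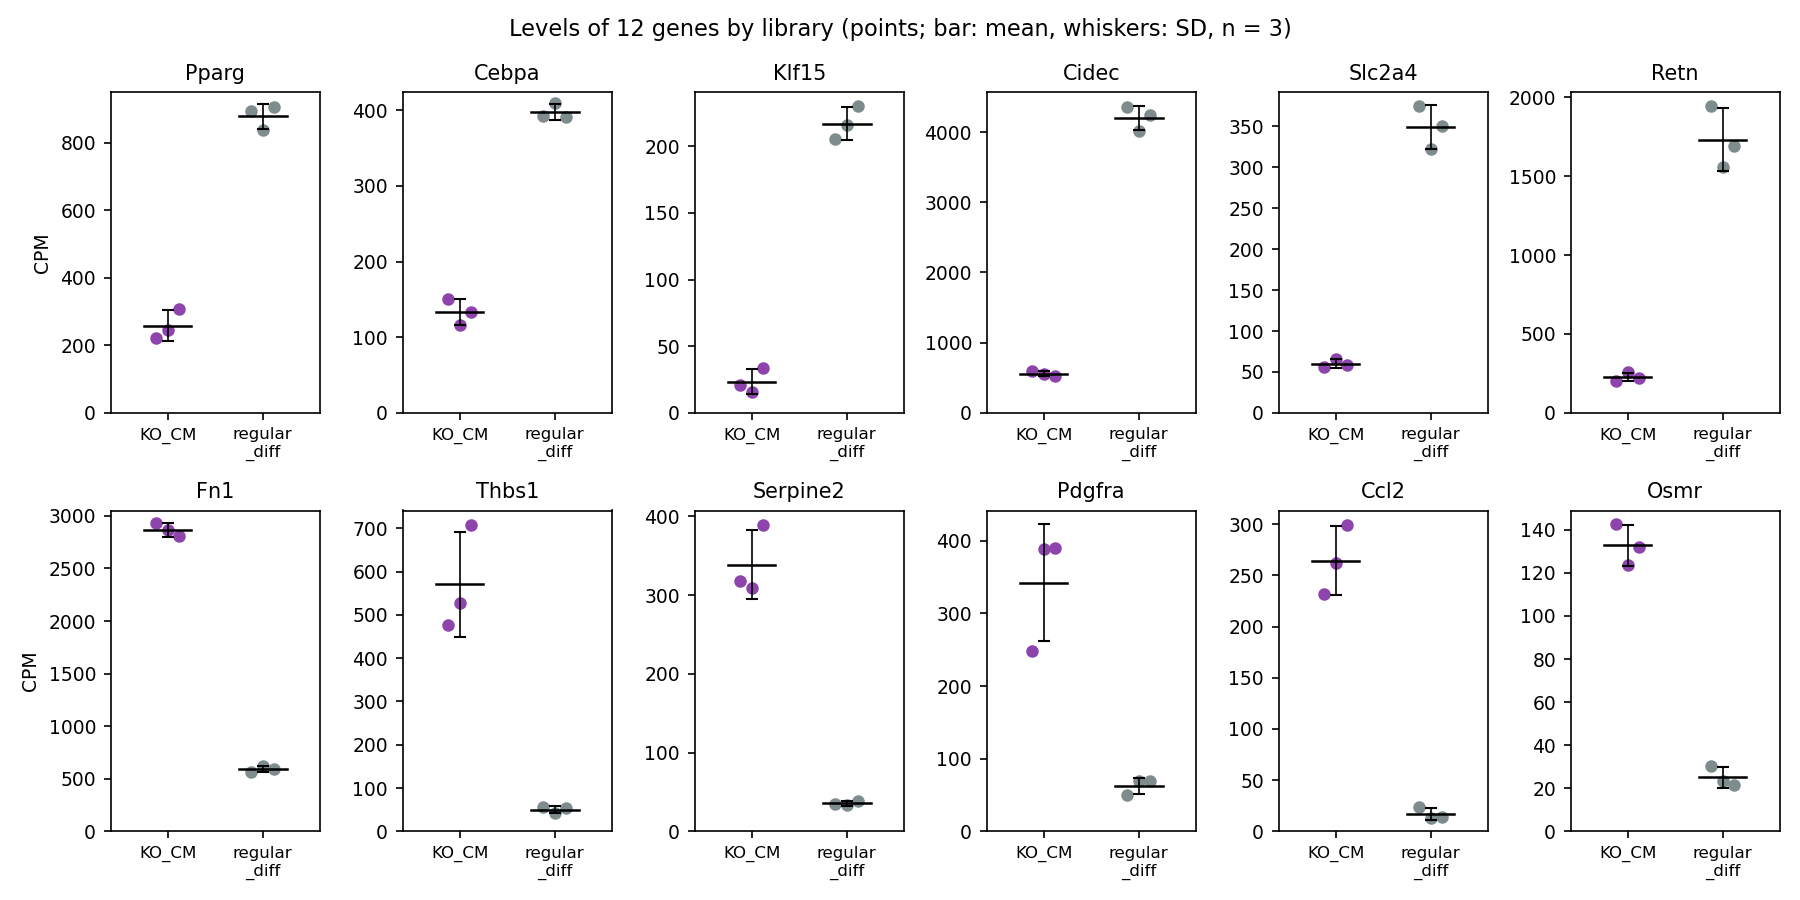
CPM of 12 genes in the 3 KO_CM and 3 regular_diff libraries (points), with the mean (bar) and SD (whiskers), on axes that start at 0. The 6 genes of the upper row, from Pparg to Retn, lie lower in every KO_CM library than in any regular_diff library, and the 6 of the lower row, from Fn1 to Osmr, lie higher.

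Of 14 lipid droplet and lipolysis genes, 11 fell and 0 rose, with a median of -1.41. Cidec, which fuses small droplets into large ones, had 603, 554 and 523 CPM in KO_CM, against 4356, 4009 and 4238 CPM in regular_diff libraries. G0s2, an inhibitor of the lipase ATGL, had 309, 278 and 319 CPM in KO_CM, against 1691, 1813 and 1620.5 CPM in regular_diff libraries. The groups did not overlap for either gene, which fell by 2.91 ± 0.38 and 2.50 ± 0.28 on the log2 scale (adjusted p 0.000365 and 8.87e-05). Hormone-sensitive lipase (Lipe) stood at -1.94 ± 0.19 and Plin1, the main coat protein of droplets, at -1.46 ± 0.13. Pnpla3, at -2.93 ± 0.41, is a low-level lipase whose 3′ end shares 24.0% of its stretches with other genes and is uncertain. Summed over the 14 genes of the list in the table, KO_CM libraries held 2928 to 3174 CPM, against 11137 to 11721 CPM in regular_diff libraries, with 559 to 579 CPM in preadipocyte libraries.

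Plin1 had 104.8, 96.6 and 107 CPM in KO_CM, against 295, 270.1 and 281 CPM in regular_diff libraries, and 0 to 1.24 CPM in preadipocytes. Its promoter is shown because Plin1 is a late gene of the cascade that was lower in each KO_CM library. The stretch covers the 250 bases before the RefSeq start on GRCm38.p6, on the minus strand at chr7:79732777-79733026, and the capitals mark the matches to the C/EBP motif TTNNGNAA on either strand.
Plin1: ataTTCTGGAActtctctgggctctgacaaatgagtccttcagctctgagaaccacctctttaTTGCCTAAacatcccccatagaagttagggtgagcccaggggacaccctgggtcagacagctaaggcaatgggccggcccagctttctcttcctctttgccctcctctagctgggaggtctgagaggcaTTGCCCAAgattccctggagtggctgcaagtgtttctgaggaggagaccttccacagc
The 3 matches begin 247, 187 and 58 bases before the start. Of all 22862 windows of the same length in the table of promoters, 37.3% hold this motif, so a match is a description and not a site.

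Fat synthesis moved the same way. Of 13 fatty acid synthesis genes, 10 fell and 0 rose, with a median of -1.23. Thrsp, a regulator of lipogenic enzymes, had 126, 164 and 136 CPM in KO_CM, against 902, 796 and 824 CPM in regular_diff libraries. The stearoyl-CoA desaturase Scd1, among the 5 genes that fell most in CPM, had 696, 1286 and 1089 CPM in KO_CM, against 4574, 3847 and 4719 CPM in regular_diff libraries. All KO_CM libraries lay below all regular_diff libraries for both genes, which changed by -2.55 ± 0.14 and -2.10 ± 0.29 (adjusted p 7.18e-14 and 0.000452). The paralog of Scd1, Scd2, fell by 1.66 ± 0.11 and fatty acid synthase (Fasn) by 1.92 ± 0.35 on the log2 scale. In Scd1, 20.2% of the stretches also occur in other genes. Of 11 genes of glycerol and triglyceride assembly, 9 fell and 1 rose, with a median of -1.72. Pck1, the enzyme that makes glycerol backbones from pyruvate, had 6.55, 5.42 and 4.40 CPM in KO_CM, against 71.1, 48.1 and 58.6 CPM in regular_diff libraries, a change of -3.42 ± 0.31. Gpd1, which supplies glycerol-3-phosphate from glycolysis, had 846, 893 and 769 CPM in KO_CM, against 3901, 3689 and 3770.5 CPM in regular_diff libraries, a change of -2.18 ± 0.43. The final acyltransferase Dgat2 changed by -2.26 ± 0.14 and the first one, Gpat3, by -2.15 ± 0.17. No group of libraries overlapped for these 4 genes. Lpin2, a phosphatidate phosphatase and the 1 that rose, had 38.0, 35.2 and 35.2 CPM in KO_CM, against 25.5, 24.1 and 13.9 CPM in regular_diff libraries. It was chosen after its values were seen. With counts thinned to the smallest library, or without regular_diff replicate 6, 0 genes of the group were called higher.

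Genes of fatty acid and glucose uptake and insulin signalling followed, with 12 of 14 lower, 0 higher and a median of -1.31. Slc2a4, the insulin-responsive glucose transporter GLUT4, had 56.3, 65.9 and 58.6 CPM in KO_CM, against 375, 322 and 351 CPM in regular_diff libraries. The fatty acyl-CoA synthetase Acsl1 had 479.6, 503 and 495 CPM in KO_CM, against 2053, 1854 and 2144 CPM in regular_diff libraries, and lipoprotein lipase (Lpl) had 569, 610.3 and 527 CPM in KO_CM, against 1299, 1483 and 1552 CPM in regular_diff libraries. The groups lay apart for all 3, which changed by -2.52 ± 0.18, -2.03 ± 0.33 and -1.34 ± 0.13 (adjusted p at most 0.00126). Fabp5, a lipid carrier with 11.7% of its stretches shared, changed by -1.96 ± 0.31, and the glycerol channel Aqp7, with 15.6% shared, by -1.78 ± 0.30. Fabp4, the abundant fatty acid carrier of fat cells, had 3907, 6004 and 5509 CPM in KO_CM, against 15373, 13850.0 and 13585 CPM in regular_diff libraries. The groups did not overlap, yet its difference of -1.47 ± 0.65 was not called (adjusted p 0.121). It was called with only the 6 libraries compared (adjusted p 1.15e-05), without a robust fit, and without preadipocyte replicate 5 and KO_CM replicate 1 together, over a range of 2.29e-17 to 0.254. In that preadipocyte library Fabp4 stood at 350.7 CPM, the highest of its group, whose lowest was 43.0 CPM.

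Of 9 adipokines tested, 6 fell and 2 rose, with a median of -1.57. Adiponectin (Adipoq), the insulin-sensitising hormone of fat cells, had 1774, 2298 and 1819.8 CPM in KO_CM, against 8884, 8787 and 8723 CPM in regular_diff libraries. Adipsin (Cfd), the complement factor D secreted by fat cells, had 1099, 948 and 933 CPM in KO_CM, against 7678, 6210.4 and 7497 CPM in regular_diff libraries, and resistin (Retn) had 204, 259 and 219.8 CPM in KO_CM, against 1946, 1558 and 1692 CPM in regular_diff libraries. Every KO_CM library was below every regular_diff library for each of these hormones, which changed by -2.16 ± 0.62, -2.84 ± 0.58 and -2.92 ± 0.41 (adjusted p 0.0269, 0.00508 and 0.000529). The call of Adipoq was lost when any 1 of the 6 libraries was left out. It was kept in the other alternatives that gave a value (range 5.04e-25 to 0.0823), and its change stayed between -2.27 and -2.08. With only the 6 libraries compared, the adjusted p was 8.51e-13 for Adipoq, 3.35e-14 for Cfd and 1.26e-13 for Retn. In preadipocyte replicate 5 Adipoq stood at 80.2 CPM, the highest of its group, whose lowest was 6.51 CPM. Without KO_CM replicate 2, 3 adipokines were called lower, and without KO_CM replicate 3, 2. Adrenomedullin (Adm), a vasodilator peptide, rose: it had 104.8, 110.1 and 101 CPM in KO_CM, against 16.4, 22.6 and 16.3 CPM in regular_diff libraries, a change of 2.53 ± 0.18 (adjusted p 6.68e-12). The other riser was Angptl4, an inhibitor of lipoprotein lipase, at 0.30 ± 0.10. It was chosen after its values were seen. With thinned counts, or without KO_CM replicate 1, only 1 adipokine was called higher, and Adm kept its call in every alternative. The leptin gene (Lep) was below the filter, with 3 counts in KO_CM and 13 in regular_diff libraries, a ratio of 2.36 in favour of regular_diff with a 95% counting interval of 0.647 to 12.9.

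Of 14 listed genes of brown and beige fat, 5 were in the table and 3 were tested, so most were not measured. All 3 tested genes fell. Cox8b, a cytochrome oxidase subunit of muscle and brown fat, had 1.31, 2.71 and 7.33 CPM in KO_CM, against 79.6, 68.5 and 71.4 CPM in regular_diff libraries. Adrb3, the adrenergic receptor that triggers lipolysis in rodent fat, had 17.0, 12.6 and 11.7 CPM in KO_CM, against 179.8, 164 and 197 CPM in regular_diff libraries, and Cox7a1 had 10.5, 25.3 and 19.0 CPM in KO_CM, against 131, 90.3 and 106 CPM in regular_diff libraries. They changed by -4.34 ± 0.34, -3.71 ± 0.19 and -2.52 ± 0.29, with no overlap of the groups (adjusted p at most 1.07e-06). Cox8b and Adrb3 were also among the 10 largest falls at 20 CPM or more, a ranking limited to genes whose groups did not overlap. Others of those 10 were Apoa4, an apolipoprotein with 2.62, 1.81 and 0 CPM in KO_CM, against 129, 155 and 124 CPM in regular_diff libraries (-6.36 ± 0.34), and Cyp2ab1, a cytochrome P450 with 2.62, 0.903 and 1.47 CPM in KO_CM, against 50.4, 62.4 and 52.8 CPM in regular_diff libraries (-5.06 ± 0.42). Igfals, the acid-labile subunit of IGF complexes, changed by -4.59 ± 0.43 and the long-chain fatty acid receptor Ffar4 by -4.33 ± 0.45. The kinase Aatk changed by -3.54 ± 0.30, and Pck1 and Rps2 are given above. Apoa4 rests on 4 counts in KO_CM and 631 in regular_diff, and Cyp2ab1 on 4 and 257.

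Mitochondrial genes of fuel use fell almost as a block. All 16 tested genes of the citric acid cycle fell, with a median of -1.19 and under each alternative run. Pyruvate carboxylase (Pcx), which refills the cycle, had 397, 275 and 305 CPM in KO_CM, against 1052, 1118 and 1121 CPM in regular_diff libraries, and isocitrate dehydrogenase Idh3a had 185, 196 and 190.5 CPM in KO_CM, against 547, 550.0 and 616 CPM in regular_diff libraries. Both sets of libraries lay well apart, at -1.76 ± 0.12 and -1.58 ± 0.10 (adjusted p 5.63e-12 and 6.98e-13). Fumarase (Fh1) fell by 1.37 ± 0.12 and malate dehydrogenase (Mdh2) by 1.16 ± 0.10 on the log2 scale. Of 18 genes of mitochondrial fatty acid oxidation 16 fell and 1 rose, with a median of -1.13. Acadm, the medium-chain acyl-CoA dehydrogenase, had 214, 299 and 242 CPM in KO_CM, against 798, 785 and 797 CPM in regular_diff libraries, a change of -1.65 ± 0.12. The gene that rose was Cpt1a, the carnitine transferase that lets fatty acids into mitochondria: it had 90.4, 97.5 and 84.98 CPM in KO_CM, against 26.1, 28.6 and 22.1 CPM in regular_diff libraries, a change of 1.84 ± 0.17 (adjusted p 5.33e-10). All 17 tested genes of branched-chain amino acid breakdown fell, with a median of -1.33, among them Aldh6a1 at -2.14 ± 0.12 and the transaminase Bcat2 at -1.81 ± 0.19. In every alternative 16 or 17 of them were called. Of 35 tested subunits of respiratory complex I, 34 fell and 0 rose, with a median of -0.82. Ndufb8 had 301, 367 and 311 CPM in KO_CM, against 1003, 916 and 916 CPM in regular_diff libraries, and Ndufs1, a core subunit, had 51.1, 117 and 108 CPM in KO_CM, against 219, 189.6 and 239.8 CPM in regular_diff libraries. KO_CM replicate 1 was the lowest library for both. The groups still did not overlap, at -1.53 ± 0.11 and -1.21 ± 0.27, and Ndufb8 shares 14.6% of its stretches.

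**Figure D5:**
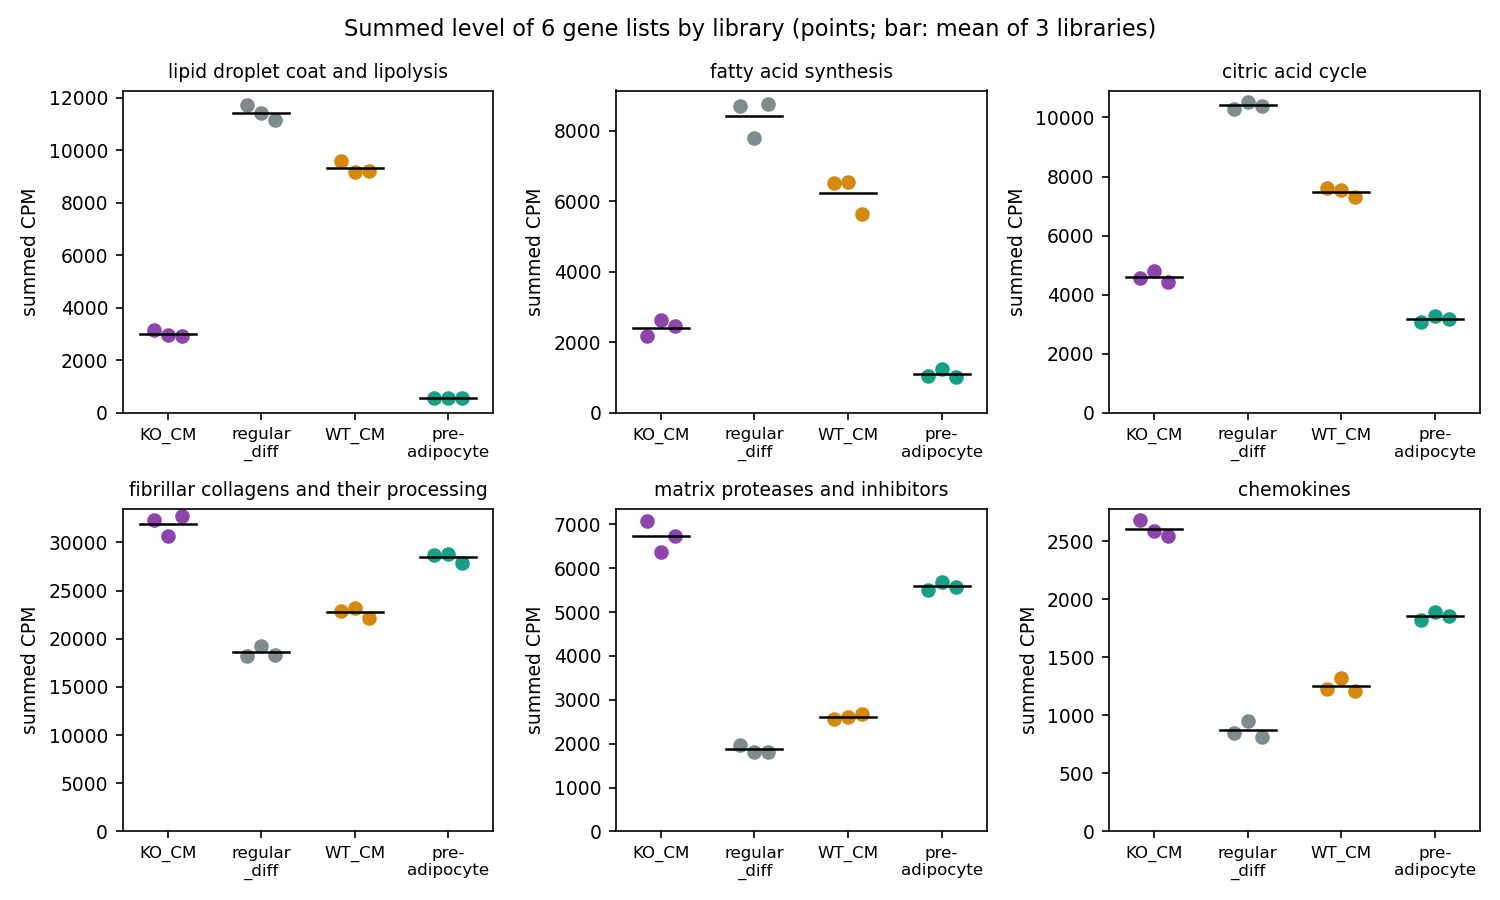
Summed CPM of the members of 6 gene groups in each library (points) with the group mean (bar), in the order KO_CM, regular_diff, WT_CM and preadipocyte, on axes that start at 0. KO_CM libraries lie between preadipocyte and regular_diff libraries for lipid droplet, fatty acid synthesis and citric acid cycle genes, and above all other groups for fibrillar collagens, matrix proteases and chemokines.

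Peroxisomal, sterol and glycolytic genes fell less uniformly. Of 21 genes listed as peroxisomal 13 fell, and the 1 that rose is not a peroxisomal gene. Catalase (Cat), which breaks down hydrogen peroxide, changed by -1.31 ± 0.13, and the membrane protein Pxmp2 by -2.64 ± 0.34, while the riser, Pmp22, the myelin protein that shares its name with a peroxisomal protein, stood at 0.59 ± 0.13. Of 21 cholesterol synthesis genes 13 fell and 0 rose, with a median of -0.95. Squalene epoxidase (Sqle) had 136, 97.5 and 93.8 CPM in KO_CM, against 250.3, 205 and 251.4 CPM in regular_diff libraries, and the sterol sensor Insig1 had 22.3, 33.4 and 30.8 CPM in KO_CM, against 71.1, 64.7 and 84.2 CPM in regular_diff libraries. Groups lay apart for both, at -1.12 ± 0.14 and -1.33 ± 0.22 (adjusted p 1.41e-07 and 1.42e-05). Of 19 glycolysis genes 9 fell and 1 rose. Hexokinase 2 (Hk2) changed by -1.43 ± 0.24, and lactate dehydrogenases Ldhb and Ldha by -1.31 ± 0.14 and -1.15 ± 0.10. Of the stretches searched in Ldha 31.1% are shared with other genes, 39.9% of those in Ldhb and 32.7% of those in Aldoa, which stood at -1.15 ± 0.12.

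Genes of the extracellular matrix rose. Of 26 fibrillar collagens and collagen-processing genes, 15 rose and 2 fell, with a median of 0.84. Col1a2, a chain of type I collagen and the gene with the largest rise in CPM, had 9526, 9955 and 11417 CPM in KO_CM, against 3842, 4087 and 3943 CPM in regular_diff libraries. Col1a1, the partner chain, was counted at far lower levels, with 238, 316 and 344 CPM in KO_CM, against 128, 141 and 132 CPM in regular_diff libraries. Every KO_CM library exceeded every regular_diff library for both chains, at 1.38 ± 0.09 and 1.17 ± 0.15 (adjusted p 1.17e-12 and 4.29e-06). Lysyl oxidase (Lox), which cross-links collagen, rose more than either, with 1591, 1390.3 and 1419.8 CPM in KO_CM, against 190.1, 225 and 209 CPM in regular_diff libraries (2.82 ± 0.11). Col3a1 rose by 1.10 ± 0.10, the prolyl hydroxylase subunit P4ha3 by 2.84 ± 0.39 and the lysyl oxidase relative Loxl4 by 2.89 ± 0.39. Col12a1, a collagen that decorates fibrils, was called at low counts, with 33 in KO_CM and 3 in regular_diff libraries, a ratio of 20.2 with a 95% counting interval of 6.35 to 103. The 2 that fell were Col5a3 at -0.55 ± 0.10 and Plod2 at -0.99 ± 0.27, chosen after their values were seen. With counts thinned to the smallest library 11 of the list were called higher.

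Of 19 matricellular proteins and glycoproteins, 13 rose and 0 fell, with a median of 1.96. Fibronectin (Fn1), on chromosome 1 from 71585520 to 71653200, had 2932, 2866 and 2804 CPM in KO_CM, against 560.1, 625 and 594 CPM in regular_diff libraries. Thrombospondin 1 (Thbs1), an activator of latent TGF-beta, had 477, 527 and 708 CPM in KO_CM, against 55.3, 41.4 and 54.0 CPM in regular_diff libraries, and tenascin N (Tnn) had 136, 77.6 and 142 CPM in KO_CM, against 0.607, 2.26 and 1.16 CPM in regular_diff libraries. No library of 1 group reached the other group for these genes, which rose by 2.27 ± 0.11, 3.49 ± 0.16 and 6.42 ± 0.36 (adjusted p at most 1.21e-13). Tenascin C (Tnc) rose by 3.11 ± 0.35. Preadipocyte libraries held 3692 to 4369 CPM of Fn1 but 1.87 to 4.54 CPM of Tnn. Osteopontin (Spp1), a secreted adhesion protein, had 156, 1694 and 1968 CPM in KO_CM, against 79.0, 87.3 and 86.5 CPM in regular_diff libraries. The 3 KO_CM libraries were all higher but uneven, with replicate 1 the lowest. It rose by 3.92 ± 0.85 (adjusted p 0.00692), by 4.44 without KO_CM replicate 1 (adjusted p 0.000116), and lost its call with only the 6 libraries compared (0.0545; range 3.4e-37 to 0.0545). Elastin (Eln), below the filter, had 0 counts in KO_CM and 20 in regular_diff libraries, at least 3.62-fold lower when KO_CM is set to 3 counts in all. Of 15 basement membrane genes 11 rose and 2 fell, with a median of 0.55, led by Lama5 at 2.59 ± 0.42 and Col18a1 at 1.39 ± 0.12, while the most abundant, Col4a1, stood at 0.20 ± 0.10 and was not called (adjusted p 0.138). Col4a1 was called with library size scaling and without preadipocyte replicate 5 and KO_CM replicate 1 (range 0.0265 to 0.363).

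Of 19 matrix proteases and their inhibitors, 17 rose and 0 fell, with a median of 2.21. The gelatinase Mmp2 had 1899, 1568 and 1588 CPM in KO_CM, against 477, 371 and 417 CPM in regular_diff libraries, and tissue plasminogen activator (Plat) had 203, 147 and 163 CPM in KO_CM, against 16.4, 19.6 and 18.0 CPM in regular_diff libraries. Serpine2, an inhibitor of thrombin and plasminogen activators, rose beside them, with 318, 309 and 389.8 CPM in KO_CM, against 35.2, 33.1 and 38.9 CPM in regular_diff libraries. Each lay above regular_diff in all 3 KO_CM libraries, at 2.00 ± 0.11, 3.24 ± 0.17 and 3.23 ± 0.14 (adjusted p at most 3.6e-14). Mmp9 had 17.0, 19.0 and 13.2 CPM in KO_CM, against 0.607, 0 and 1.74 CPM in regular_diff libraries (4.17 ± 0.52). The stromelysin Mmp3 rested on 19 counts in KO_CM and 1 in regular_diff libraries, a ratio of 35.0 with a 95% counting interval of 5.56 to 1452. Proteases and inhibitors thus rose in the same libraries. Timp4, an inhibitor known from fat tissue, was below the filter, with 1 count in KO_CM and 36 in regular_diff libraries, a ratio of 19.6 in favour of regular_diff (3.29 to 794).

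The promoter of Mmp3 is shown because the gene had 1 count in all regular_diff libraries together and counts in each KO_CM library. These are the 250 bases before the RefSeq start on GRCm38.p6, plus strand, chr9:7445572-7445821, with capitals for the match to the AP-1 motif TGANTCA (either strand).
Mmp3: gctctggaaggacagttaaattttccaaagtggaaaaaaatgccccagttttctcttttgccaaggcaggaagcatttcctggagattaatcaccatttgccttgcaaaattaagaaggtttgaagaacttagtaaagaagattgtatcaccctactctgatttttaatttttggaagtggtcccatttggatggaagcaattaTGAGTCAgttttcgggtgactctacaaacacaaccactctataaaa
The match begins 46 bases before the start. This motif is held by 6.96% of all promoter windows, by 5.403% of the windows of genes called higher, 3.98% of those called lower and 3.33% of those tested and not called.

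Receptors and factors of progenitor cells rose. Of 17 tested, 11 rose and 0 fell, with a median of 1.36. Pdgfra, the growth factor receptor that marks fat progenitors, had 249, 388 and 389.8 CPM in KO_CM, against 50.4, 69.2 and 69.1 CPM in regular_diff libraries. The surface protein Thy1 had 317, 269 and 314 CPM in KO_CM, against 54.7, 57.9 and 52.3 CPM in regular_diff libraries, and endosialin (Cd248) had 464, 425 and 410.3 CPM in KO_CM, against 122, 126 and 127 CPM in regular_diff libraries. All 3 KO_CM libraries exceeded all regular_diff libraries, at 2.45 ± 0.18, 2.44 ± 0.13 and 1.79 ± 0.12 (adjusted p at most 2.28e-09). Gata2, a factor that holds preadipocytes back, rose by 1.97 ± 0.49, and the mesenchymal factor Twist1 by 1.12 ± 0.11. Summed over the list, KO_CM libraries held 2356 to 2610 CPM, against 798 to 887 CPM in regular_diff libraries, with 2155 to 2433 CPM in preadipocyte libraries.

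Of 15 contractile and cytoskeletal genes, 11 rose and 2 fell, with a median of 1.27. Calponin 2 (Cnn2), an actin-binding protein, had 1285, 1240.4 and 1116 CPM in KO_CM, against 231, 199 and 208 CPM in regular_diff libraries, and vimentin (Vim), the intermediate filament of fibroblasts, had 7974, 8311 and 8120.5 CPM in KO_CM, against 3696, 4312 and 4044 CPM in regular_diff libraries. Both groups of libraries were tight and apart, at 2.51 ± 0.11 and 1.02 ± 0.09 (adjusted p 8.05e-16 and 3.49e-10). Myosin light chain 9 (Myl9) had 24.9, 19.9 and 16.1 CPM in KO_CM, against 3.64, 4.51 and 3.48 CPM in regular_diff libraries (2.38 ± 0.36), and smooth muscle actin (Acta2), a myofibroblast marker, stayed below 11 CPM in each of the 6 libraries at 1.86 ± 0.56. The smooth muscle myosin Myh11 fell by 2.32 ± 0.50 on the log2 scale. Markers of muscle, bone and cartilage were largely low: of 3 tested, Runx2, a bone factor, rose by 0.94 ± 0.21 and the others were not called.

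The promoter of Myl9 is shown as that of a contractile gene that rose. It covers 250 bases before the RefSeq start on GRCm38.p6, plus strand, chr2:156775214-156775463, with capitals for the match to the CArG box, the motif of serum response factor, and for a match to the NF-kB motif upstream of it.
Myl9: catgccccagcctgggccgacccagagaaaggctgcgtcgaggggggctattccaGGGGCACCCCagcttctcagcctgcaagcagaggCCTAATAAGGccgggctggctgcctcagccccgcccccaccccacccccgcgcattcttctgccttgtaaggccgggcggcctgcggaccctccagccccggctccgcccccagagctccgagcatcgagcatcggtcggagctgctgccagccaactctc
The matches begin 195 bases (NF-kB) and 161 bases (CArG box) before the start. A CArG box is held by 1.38% of all promoter windows, by 1.94% of those of genes called higher, 1.39% of those called lower and 0.946% of those not called.

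Of 10 chemokines tested 7 rose and 1 fell, with a median of 1.77. Ccl2, which draws monocytes, lies on chromosome 11 from 82035571 to 82037453 and had 232, 262 and 299 CPM in KO_CM, against 23.7, 12.8 and 14.5 CPM in regular_diff libraries. Cxcl12, which holds stem cells and lymphocytes and is the most abundant of the group, had 2262, 2064 and 1981 CPM in KO_CM, against 710.1, 819 and 678 CPM in regular_diff libraries. Cxcl5, a neutrophil attractant, had 40.6, 46.0 and 57.1 CPM in KO_CM, against 5.47, 5.27 and 5.23 CPM in regular_diff libraries. For all 3 the lowest KO_CM library was above the highest regular_diff library, and the rises were 3.93 ± 0.19, 1.52 ± 0.10 and 3.14 ± 0.27 (adjusted p at most 1.63e-10). Ccl9 and Ccl5 rose by 2.52 ± 0.48 and 2.10 ± 0.47, and Cxcl1, another neutrophil attractant, had 52.4, 37.0 and 24.9 CPM in KO_CM, against 11.5, 19.6 and 14.5 CPM in regular_diff libraries (1.35 ± 0.26, adjusted p 0.000166). Ccl8 was below the filter with 23 counts in KO_CM and 1 in regular_diff libraries, a ratio of 42.3 (6.87 to 1743). Its counts were 1, 16 and 6 in KO_CM replicates 1, 2 and 3. Ccl6, chosen after its values were seen, changed by -1.14 ± 0.18. With only the 6 libraries compared 5 chemokines were called higher, and without KO_CM replicate 1 the number was 9.

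The Cxcl1 promoter is shown because the NF-kB motif was more frequent at genes called higher than at genes called lower. The 250 bases before the RefSeq start on GRCm38.p6 lie on the plus strand at chr5:90890995-90891244, and capitals mark overlapping matches on both strands.
Cxcl1: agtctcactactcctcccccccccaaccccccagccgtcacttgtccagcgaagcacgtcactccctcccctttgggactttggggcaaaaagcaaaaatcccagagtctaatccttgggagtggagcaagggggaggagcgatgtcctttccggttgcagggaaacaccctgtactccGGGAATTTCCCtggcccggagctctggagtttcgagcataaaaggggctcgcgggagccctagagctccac
The matches begin 71 and 70 bases before the start. The NF-kB motif is held by 6.42% of 981 windows of genes called higher, 3.52% of 1079 windows of genes called lower, 3.63% of 4018 windows of genes not called and 3.70% of all 22862 windows. Among genes changed at least 2-fold the share was 7.59% for those called higher and 4.16% for those called lower, and that of the TEAD motif GGAATG was 14.1% and 9.24%. Without the 2-fold limit, TEAD shares were 12.7% for genes called higher, 10.3% for those called lower, 9.28% for those not called and 12.6% of all windows. In the same order, shares of the C/EBP motif TTNNGNAA were 25.7%, 27.1%, 27.1% and 37.3%. Those of the STAT motif TTCNNNGAA, searched after the data were seen, were 5.20%, 5.84%, 6.02% and 7.23%. Only 6078 of the 9519 genes tested had a window. The PPAR motif was matched in 0.0440% of all windows. These shares are a description with no test, and a missing match says only that the letters are not in the window.

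Of 26 cytokines, growth factors and receptors tested, 13 rose and 4 fell, with a median of 1.05. The 15.4% that fell is near the 17.3% over all genes. Gremlin 1 (Grem1), a secreted antagonist of BMPs, lies on chromosome 2 from 113746164 to 113758646 and had the largest rise of any gene at 20 CPM or more: 81.2, 107 and 193 CPM in KO_CM, against 0, 1.505 and 1.16 CPM in regular_diff libraries. All 4 counts of regular_diff libraries came from replicates 5 and 6, and the rise was 7.06 ± 0.77 (adjusted p 6.81e-05). The oncostatin M receptor (Osmr) had 143, 124 and 132 CPM in KO_CM, against 30.4, 23.3 and 21.5 CPM in regular_diff libraries. The shared receptor chain of the same cytokine family (Il6st, gp130) had 321, 252 and 259 CPM in KO_CM, against 77.1, 78.2 and 70.8 CPM in regular_diff libraries, and Socs3, the feedback inhibitor of that pathway, had 204, 169 and 199 CPM in KO_CM, against 14.0, 21.1 and 23.8 CPM in regular_diff libraries. The groups were apart for all 3, at 2.39 ± 0.15, 1.88 ± 0.13 and 3.27 ± 0.18 (adjusted p at most 1.95e-12). Igfbp6, an IGF carrier, rose by 2.64 ± 0.30, the alarmin Il33 by 2.30 ± 0.55 and the macrophage growth factor Csf1 by 2.17 ± 0.13, while Igfbp7, a secreted IGF-binding protein, fell, at -0.37 ± 0.09. Il1rl1, the receptor of Il33, was below the filter with 18 counts in KO_CM and 0 in regular_diff libraries, a rise of at least 11.04-fold when regular_diff is set to 3 counts in all. Il6st, Socs3 and Csf1 were chosen after their values were seen.

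Among 12 acute phase genes tested 5 rose and 2 fell, with a median of 0.85, and the 16.7% that fell is near the 17.3% over all genes. Serum amyloid A3 (Saa3), the acute phase apolipoprotein made by fat tissue and macrophages, had 109, 67.7 and 111 CPM in KO_CM, against 1.82, 2.26 and 0 CPM in regular_diff libraries, and the iron-trapping lipocalin Lcn2 had 193, 175 and 157 CPM in KO_CM, against 32.2, 30.8 and 40.1 CPM in regular_diff libraries. Orm1, an acid glycoprotein, moved the other way, with 22.3, 27.1 and 32.2 CPM in KO_CM, against 280.1, 227 and 249 CPM in regular_diff libraries. The groups did not overlap for any of the 3, at 6.11 ± 0.43, 2.34 ± 0.18 and -3.22 ± 0.19 (adjusted p at most 5.68e-11). Serpina3g rose by 4.66 ± 0.57. Haptoglobin (Hp), the most abundant of the list, had 1534, 1040.0 and 966 CPM in KO_CM, against 426, 421 and 509 CPM in regular_diff libraries. All KO_CM libraries were higher, but its difference of 1.38 ± 0.74 was not called (adjusted p 0.196). Hp was called with only the 6 libraries compared (adjusted p 4.55e-05), without preadipocyte replicate 5 and KO_CM replicate 1, and without a robust fit (range 5.13e-15 to 0.344). Shared stretches make up 38.3% of those searched in Orm1, 47.3% in Serpina3g and 11.3% in Saa3, so these are uncertain. Of 11 complement genes 5 rose and 3 fell. Among those that rose were the proteases C1s1 at 2.45 ± 0.12, C1ra at 2.32 ± 0.15 and Masp1 at 2.60 ± 0.18. The 3 that fell were C3, Cfb and Cfd (C3 at -0.48 ± 0.11 and Cfb at -1.12 ± 0.42, chosen after their values were seen). Below the filter, C4a had 2 counts in KO_CM and 13 in regular_diff libraries, and Serping1 had 10 and 1. Stretches shared with other genes were 34.7% in C1s1 and 27.7% in C1ra.

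The Saa3 promoter is shown because its gene is a classical target of C/EBP factors and its level was near 0 in regular_diff libraries. The 250 bases before the RefSeq start on GRCm38.p6 lie on the minus strand at chr7:46715677-46715926, with capitals for matches to the C/EBP motif TTNNGNAA on either strand.
Saa3: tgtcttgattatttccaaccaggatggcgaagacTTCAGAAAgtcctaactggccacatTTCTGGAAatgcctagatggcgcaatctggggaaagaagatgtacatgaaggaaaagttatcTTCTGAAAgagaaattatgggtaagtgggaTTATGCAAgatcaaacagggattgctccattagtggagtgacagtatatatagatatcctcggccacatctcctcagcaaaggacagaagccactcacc
The 4 matches begin 216, 191, 129 and 99 bases before the start. The Plin1 window, of a gene that fell, held 3 matches to the same motif.

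Of 16 NF-kB response genes, 11 rose and 1 fell, with a median of 1.07. The NF-kB regulator Bcl3 had 62.9, 47.8 and 60.1 CPM in KO_CM, against 15.2, 9.78 and 6.97 CPM in regular_diff libraries, and the inhibitor Nfkbie had 28.8, 20.8 and 23.4 CPM in KO_CM, against 7.29, 0.752 and 1.16 CPM in regular_diff libraries. Neither overlapped, at 2.39 ± 0.24 and 2.88 ± 0.46 (adjusted p 5.16e-09 and 2.14e-05). Vcam1, an adhesion molecule for leukocytes, had 60.3, 173 and 132 CPM in KO_CM, against 34.6, 45.1 and 41.8 CPM in regular_diff libraries (1.63 ± 0.40). Its call was lost without KO_CM replicate 2, at an adjusted p of 0.0503 (range 5.58e-16 to 0.0503). The prostaglandin synthase Ptgs2, at 2.59 ± 0.87, stood at 1.31, 3.61 and 13.2 CPM in KO_CM libraries, against 1.21, 0 and 1.16 CPM in regular_diff libraries. Its ranges lay close together, and its call was lost without KO_CM replicate 3 or regular_diff replicate 5 (range 0.00202 to 0.272). The 1 gene that fell, the inhibitor Nfkbia, stood at -0.47 ± 0.17 and lost its call in 12 of 18 alternatives (range 0.0126 to 0.303).

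Of 22 interferon-stimulated genes, 9 rose and 2 fell, with a median of 0.70. Bst2 (tetherin), which holds budding viruses at the membrane, had 461, 363 and 365 CPM in KO_CM, against 92.3, 109 and 88.3 CPM in regular_diff libraries, and Oasl2 had 13.1, 10.8 and 24.9 CPM in KO_CM, against 0.607, 1.505 and 2.90 CPM in regular_diff libraries. Both were higher in every KO_CM library, by 2.04 ± 0.14 and 3.12 ± 0.50 (adjusted p 6.96e-12 and 1.16e-05). Ifit1 and Mx2, at 2.34 ± 0.77 and 2.13 ± 0.70, stayed under 11 CPM in each of the 6 libraries, and each lost its call in some alternatives (ranges 0.00218 to 0.129 and 0.0143 to 0.0734). Ifi27, the most abundant, fell by 0.77 ± 0.10 on the log2 scale. Summed over the list, KO_CM libraries held 1216 to 1267 CPM, against 1066 to 1195 CPM in regular_diff libraries, while preadipocyte libraries held 3097 to 3714 CPM. With only the 6 libraries compared, or without KO_CM replicate 2, 6 members were called higher. Of 14 genes of MHC class I presentation and immune checkpoints 7 rose and 0 fell, with a median of 0.49. The immunoproteasome subunit Psmb8 rose by 1.65 ± 0.29, the checkpoint relative Cd276 (B7-H3) by 1.38 ± 0.25 and galectin 9 (Lgals9) by 1.14 ± 0.20, each with higher values in all 3 KO_CM libraries. Cd274, the checkpoint ligand PD-L1, was below the filter and lower: it had 0, 1 and 1 counts in KO_CM replicates 1, 2 and 3, against 9, 7 and 9 in regular_diff replicates 4, 5 and 6. The count ratio was 6.79 in favour of regular_diff, with a 95% counting interval of 1.69 to 59.2.

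The 10 largest rises at 20 CPM or more held 5 genes that belong to none of the gene lists. Angptl7, a secreted angiopoietin-like protein, had 69.4, 43.3 and 54.2 CPM in KO_CM, against 0, 0.752 and 0.581 CPM in regular_diff libraries, or 138 counts against 2, a ratio of 127 with a 95% counting interval of 34.5 to 1059. It was at most 0.576 CPM in WT_CM and at most 0.649 CPM in preadipocyte libraries. The water channel Aqp1 had 383, 289 and 329.7 CPM in KO_CM, against 12.1, 15.05 and 24.4 CPM in regular_diff libraries, and Nbl1, a BMP antagonist of the DAN family, had 64.2, 28.0 and 38.1 CPM in KO_CM, against 1.21, 3.76 and 1.74 CPM in regular_diff libraries. Aqp1 rose by 4.25 ± 0.18 and Nbl1 by 4.26 ± 0.44. The rule that picked these genes required groups without overlap, so their separation is not a separate result. Mamdc2 rose by 4.60 ± 0.52 and the predicted gene Gm2115 by 4.26 ± 0.32. Ferritin heavy chain (Fth1), which stores iron, was among the 5 largest rises in CPM but changed by only 0.37 ± 0.09. Its stretches are shared at 15.7%.

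The labelled cell type was checked against markers of other cells. Of the lists of such markers, 5 of 14 macrophage genes, 1 of 10 endothelial genes and 6 of 17 epithelial genes were in the table. Macrophage markers were low, with a summed level of 34.3 to 39.6 CPM in KO_CM, against 23.1 to 30.1 CPM in regular_diff libraries: Cd14 stood at 0.73 ± 0.26 and Cd68 at -1.43 ± 0.51, both calls being lost in 4 alternatives each, and Aif1, Lyz2 and Mpeg1 were below the filter. The 1 tested endothelial marker, Egfl7, was not called (-0.33 ± 0.37). Epithelial and mammary tumour cell markers summed to 18.1 to 49.8 CPM in KO_CM, against 36.9 to 41.3 CPM in regular_diff libraries, with Krt7 at 1.84 ± 0.54 and Krt18 at -1.53 ± 0.43, at levels of at most 18.3 and 23.1 CPM. The call of Krt7 was lost without KO_CM replicate 1 (adjusted p 0.0731, range 0.0017 to 0.0731) and that of Krt18 without KO_CM replicate 2 or with thinned counts (range 0.00165 to 0.108). Their part in the other results was not tested. The fat cell gene Adipoq was present in each KO_CM library, at 1774, 2298 and 1819.8 CPM, against 6.51 to 80.2 CPM in preadipocyte libraries. This does not hold for every gene of regular_diff libraries, since Apoa4 and Cyp2ab1 each rested on 4 counts in KO_CM.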

How the data were processed

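RNA of 12 libraries was counted by MARS-seq. The deposited table holds whole-number counts per gene, made by the authors from unique molecular identifiers. Build mm10 and the tools cutadapt, HTSeq and DESeq2 are named in the submitters' processing notes, without roles or versions. The sources used here do not give the annotation. The same file holds the authors' normalized signal, and log2 fold changes and adjusted p-values of the authors are deposited with it. A further 12 columns of log-scale values were not used.

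Counts were tested in R 4.3.3 with edgeR 4.0.16 (limma 3.58.1), using its quasi-likelihood test with robust fit, TMM scaling and Benjamini-Hochberg adjustment. All 12 libraries in 4 groups entered 1 fit, which estimates the spread over all groups, and the contrast was KO_CM over regular_diff. The filter was edgeR's filterByExpr, the threshold an adjusted p of 0.05, and list members under the filter are given as counts. DESeq2 1.42.0, other scalings, filters, sample sets and libraries left out in turn were alternatives. The test was checked on counts simulated from its own fitted spread, with no library that stood apart. This check does not cover calls that depend on such libraries. Tables and figures were made with Python 3.11.15, pandas 2.3.3 and matplotlib 3.10.9.

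Total counts per library ran from 669007 to 2025317, which limits the precision for genes of a few CPM. Intervals of count ratios are exact 95% intervals and, like floors of 3 counts, cover counting error only. Genes named are 10 fixed ones, the 10 largest called rises and falls at a mean of 20 CPM or more with no overlap of the groups, the 5 largest in CPM each way, and, per list, up to 4 called members by size of change plus the most abundant one. The comparison, the gene lists and the named genes were chosen with earlier results of these data known. Gene coordinates are from GENCODE vM21, and promoters from RefSeq. A gene was marked as uncertain where over 10% of the stretches searched at its 3′ end also occur in other genes. Some genes that meet the naming rule are not reported here.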

Additional observations from a re-analysis of the deposited data

How the results depend on the processing

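The number of genes called was 3290 and lay between 2543 and 3359 over the 18 alternatives, the lowest with counts thinned to the smallest total and the highest without preadipocyte replicate 5 and KO_CM replicate 1. DESeq2 called 2801, and the 6 libraries alone gave 3056. Leaving out 1 library at a time gave 2834 to 3044 genes called, 1462 to 1566 of them higher and 1372 to 1519 lower, and 1484 to 1563 with at least 2-fold change. Scaling by library size gave 1876 higher and 1447 lower, or 56.46% higher against 49.82%, and its median over all genes was 0.068. Leaving out genes that split within a group, an alternative chosen after seeing the data, gave 3283. Of 185 named genes tested, 176 were called, 155 of them under every alternative that gave a value, while 21 lost the call in at least 1, 8 of these without KO_CM replicate 1. Of 9 not called, 6 were called in at least 1 alternative. The 1 gene that changed sign was Atf4, which was not called at -0.05: it stood at 0.0268 with library size scaling and at -0.166 to 0.0603 with 1 library left out, being above 0 without KO_CM replicate 2 (0.0050) and without KO_CM replicate 3. The cause was not tested. Called members moved by over 1.5 times in small lists: glucocorticoid targets called lower numbered 2, against 4, with thinned counts, DESeq2, library size scaling, and without KO_CM replicate 1 or 2 or regular_diff replicate 4, 5 or 6, and p53 targets called higher 1, against 3, with thinned counts and DESeq2. No paired analysis was possible because KO_CM has replicates 1 to 3 and regular_diff 4 to 6. Depth limits genes of a few CPM: 20.6% of the genes in the lowest of 4 level classes were called.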

Other observations

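Lysosomal genes leaned higher in KO_CM: of 20 tested, 11 rose and 1 fell, with a median of 0.71. Legumain (Lgmn), a protease that cleaves after asparagine, had 410.1, 243 and 359 CPM in KO_CM, against 63.8, 61.7 and 67.4 CPM in regular_diff libraries. It changed by 2.38 ± 0.18. The lysosomal hydrolase Gla (10.3% of stretches shared) stood at 1.54 ± 0.29 and cathepsin B (Ctsb) at 1.45 ± 0.43, though the call of Ctsb was lost without KO_CM replicate 2. Lamp1, the most abundant, was not called, at 0.26 ± 0.10 (adjusted p 0.0538), but was called in 8 of 18 alternatives (range 0.00895 to 0.266). Of 19 folding genes of the endoplasmic reticulum 6 rose and 3 fell, with a median of 0.15, and the 15.8% that fell is near the 17.3% over all genes. The lectin chaperone Calr had 2344, 2344 and 2566 CPM in KO_CM, against 1459, 1526 and 1388 CPM in regular_diff libraries (0.73 ± 0.10), and its partner Pdia3 rose by 1.01 ± 0.25 and Creld2 by 0.81 ± 0.15. Xbp1, a factor of the unfolded protein response, had 280.4, 284 and 268 CPM in KO_CM, against 537, 574 and 563 CPM in regular_diff libraries (-1.01 ± 0.10), and Dnajb9 stood at -0.84 ± 0.14.

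Of 19 amino acid stress genes 8 fell and 2 rose, with a median of -0.38. The serine synthesis enzyme Psat1 had 107, 178 and 135 CPM in KO_CM, against 301, 337 and 338 CPM in regular_diff libraries (-1.20 ± 0.18). Trib3 and Chac1 stood at -0.88 ± 0.13 and -0.86 ± 0.15, Phgdh, whose 3′ end is 59.9% shared, at -0.76 ± 0.16, and the pathway's factor Atf4 was not called, at -0.05 ± 0.11. Of 17 antioxidant genes of the NRF2 response 7 fell and 0 rose, with a median of -0.58, among them Gsr at -0.89 ± 0.22. Superoxide dismutase Sod1 at -1.31 ± 0.10 and G6pdx at -0.95 ± 0.11 are uncertain, with 36.7% and 16.4% of their stretches shared.

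Lists tied to p53, to division and to hormone signals held calls in both directions. Of 16 p53 targets 3 rose and 3 fell, with a median of 0.12. Both shares, 18.75% each, are near the 17.2% and 17.3% over all genes. Mdm2, the ligase that degrades p53 and the most abundant of them, had 3526, 3649 and 3728 CPM in KO_CM, against 3531, 3355 and 3361 CPM in regular_diff libraries, and was not called (0.09 ± 0.09). Plk2 rose by 1.88 ± 0.26, and Bbc3 (Puma) stood at -1.02 ± 0.26. Zmat3 at 0.64 ± 0.22 and Rrm2b (24.9% shared) at -1.26 ± 0.49 lost their calls in 4 and 12 alternatives. Of 26 cell cycle genes 4 rose and 2 fell, with a median of 0.06, and the 15.4% that rose is near the 17.2% over all genes. Cyclin D1 (Ccnd1) had 265, 252 and 372 CPM in KO_CM, against 52.2, 40.6 and 60.4 CPM in regular_diff libraries (2.51 ± 0.19), with no overlap, while cyclin D2 (Ccnd2) stood at -0.54 ± 0.14, the helicase subunit Mcm6 at 0.92 ± 0.20 and Top2a and Mki67 at 0.84 ± 0.29 and -1.14 ± 0.40. Stretches shared in Mki67 were 10.6%. The calls of Top2a and Mki67 were lost in 4 and 6 alternatives.

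Of 18 TGF-beta targets 6 rose and 5 fell, with a median of 0.09. Ltbp1, which stores latent TGF-beta in the matrix, rose by 2.53 ± 0.43, and Id1 stood at -1.39 ± 0.11, with 142, 134 and 125 CPM in KO_CM, against 346, 327 and 376 CPM in regular_diff libraries. Smad7 at 1.08 ± 0.39 lost its call in 6 alternatives, and Tsc22d1 was not called (-0.25 ± 0.16) except without preadipocyte replicate 5 and KO_CM replicate 1. Of 16 glucocorticoid targets 7 rose and 4 fell, with a median of -0.19, and without KO_CM replicate 1 these were 5 and 2. The kinase Sgk1 rose by 1.17 ± 0.14 and Errfi1 by 1.30 ± 0.20, glutamine synthetase (Glul, 29.4% shared) stood at -1.01 ± 0.21, and metallothionein Mt1 was not called (-0.45 ± 0.24) except with the 6 libraries alone or without preadipocyte replicate 5 and KO_CM replicate 1. Of 73 ribosomal protein genes tested 9 rose and 2 fell, with a median of 0.13.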
